A study of Homo sapiens with 10 samples.

Results

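The genes described here are those that handle zinc, iron and copper in the cell. They were taken by name from the value table: every gene whose symbol marks it as a metallothionein, every SLC30A and SLC39A zinc carrier, the zinc sensor MTF1, and named genes of iron and copper transport and storage. Where a gene had several rows, the row with the highest mean was used. This gave 49 genes of 18377 that have a row of their own: 15 metallothioneins, 10 SLC30A genes, 14 SLC39A genes, MTF1, 5 iron genes and 4 copper genes. A further pair of iron genes in the list was not analysed here, and 1 row that carries a metallothionein beside an unrelated gene was left out.

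BEAS-2B is an established line of immortalized human bronchial epithelial cells. The Cr_large and Cr_small groups each hold 3 lines from soft agar colonies of cells kept in 0.5 μM potassium chromate for 30 days. Large colonies gave the first group and colonies of control size the second. Colonies grew in soft agar for 3 weeks. The exposure ended before soft agar, and the lines were expanded without chromate, so no array is from cells under chromate. The control group holds 3 lines from colonies that arose without chromate, and the parental group is 1 array of BEAS-2B cells that had not been through soft agar. Each line was expanded in monolayer from 1 colony and measured on 1 Affymetrix Human Gene 1.0 ST array, and no repeat of the exposure is described, so p-values measure the spread between lines. The protocol text of the labels gives the chromate exposure for every array, and the groups were taken from the titles.

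Levels are log2 of the deposited intensities, which have a median of 5.86 over the 28869 transcript clusters (the features of the array) and all 10 arrays. Of the 49 genes, 40 had a mean above that median. The Cr lines were compared with the control lines in a linear model over all clusters (limma), as the mean of the Cr_large and Cr_small group means minus the control mean, and a gene is said to have risen or fallen at a Benjamini-Hochberg adjusted p under 0.05. Epithelial keratins KRT8, KRT18 and KRT7 were bright, KRT8 and KRT18 with means of 12.45 and 12.16 in the Cr lines and of 11.70 and 11.34 in the control lines, as were the mesenchymal genes VIM, CDH2 and FN1. The keratin KRT5, with group means from 5.47 to 5.50, was below that array median, as were CDH1 and EPCAM. The airway genes NKX2-1, SCGB1A1, FOXJ1 and MUC5B also had group means below it, as did PTPRC and PECAM1 of leukocytes and endothelium. KRT8, KRT18 and KRT7 were 1.68-fold, 1.77-fold and 1.25-fold higher in the Cr lines than in the control lines (adjusted p = 0.00505, 0.00188 and 0.0433 from limma), and KRT19 ran from 5.79 to 10.07 over the 6 Cr lines and from 6.07 to 6.27 over the control lines. The part of these shifts in the results below was not tested. As the RNA is from whole cultures, fewer cells of a kind and less RNA per cell cannot be told apart.

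Metallothioneins are small cysteine-rich proteins that bind zinc, copper and cadmium. When free zinc rises, the transcription factor MTF1 binds metal response elements in the promoters of metallothionein genes and of SLC30A1, the zinc exporter of the plasma membrane, and switches them on. Most SLC30A proteins move zinc out of the cytosol, and SLC39A proteins move it in. Copper enters through SLC31A1 and is pumped into the secretory pathway or out of the cell by ATP7A and ATP7B. Iron enters with transferrin through TFRC, is stored in ferritin, of which FTL is the light chain, and leaves through SLC40A1. Chromate itself enters cells through anion carriers and not through these proteins.

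The upstream sequences of 3 genes are shown because these genes stood farthest above the parental array. Each is the 250 bases before the RefSeq start of the gene in GRCh38.p14, 5′ to 3′ on the strand of the gene. Capitals mark the core of the metal response element, searched as TGCACNC and TGCGCNC on both strands. MT2A lies at chr16:56608334-56608583 (plus strand), MT1X at chr16:56682220-56682469 (plus strand) and SLC30A1 at chr1:211579162-211579411 (minus strand).
MT2A: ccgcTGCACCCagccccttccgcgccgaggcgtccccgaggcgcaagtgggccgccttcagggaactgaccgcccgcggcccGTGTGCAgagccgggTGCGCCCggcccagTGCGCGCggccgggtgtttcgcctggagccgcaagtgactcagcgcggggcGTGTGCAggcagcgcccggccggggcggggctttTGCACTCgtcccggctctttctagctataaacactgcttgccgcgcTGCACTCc
MT1X: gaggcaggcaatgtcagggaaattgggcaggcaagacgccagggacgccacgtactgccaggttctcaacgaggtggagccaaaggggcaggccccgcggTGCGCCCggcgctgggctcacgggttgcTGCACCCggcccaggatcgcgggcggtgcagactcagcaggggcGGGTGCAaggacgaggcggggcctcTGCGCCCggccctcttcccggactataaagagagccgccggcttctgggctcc
SLC30A1: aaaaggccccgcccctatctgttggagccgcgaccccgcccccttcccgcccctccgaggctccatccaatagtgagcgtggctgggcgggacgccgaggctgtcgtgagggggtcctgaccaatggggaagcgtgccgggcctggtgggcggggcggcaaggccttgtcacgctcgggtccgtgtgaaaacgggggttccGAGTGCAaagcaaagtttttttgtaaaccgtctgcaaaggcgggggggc
MT2A held 7 matches, MT1X 4 and SLC30A1 1. Promoters of 35 of the 49 genes were at hand, among them those of 5 metallothioneins, and MT1H held 8 matches, MT1B 3 and MT4 3. Of the other genes SLC30A2 and TFRC held 3 as well, so 7 of the 35 promoters had at least 3, beside 1.56% of the 27305 promoters searched, and 14 had at least 1, beside 24.7%. The windows of ATP7A, SLC31A1, SLC30A9 and FTL held none. A match is a run of letters and not a measured site. In the control lines MT1H lay 0.45 above the parental array and MT1X 1.85 above it, while SLC30A2 differed from it by -0.06.

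Of the 15 metallothioneins, 4 were at least 1.5-fold higher in the soft agar lines than in the parental cells, in the Cr lines and in the control lines alike, as were 2.93% of all clusters in the Cr lines and 2.28% in the control lines. Among clusters with a mean above the array median these shares were 5.67% and 4.29%. MT2A was 2.03-fold higher in the Cr lines and 2.02-fold higher in the control lines than on the parental array, MT1X 2.69-fold and 3.61-fold, MT1G 1.90-fold and 1.84-fold, and MT1DP, a pseudogene, 1.67-fold and 1.67-fold. SLC30A1 was 2.09-fold and 2.45-fold higher. Between the Cr lines and the control lines no metallothionein passed the test.

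MT2A stood at 13.05, 13.02 and 12.79 in Cr_large lines 1 to 3, at 13.15, 12.88 and 13.03 in Cr_small lines 1 to 3, at 13.00, 13.07 and 12.87 in control lines 1 to 3 and at 11.97 on the parental array. The 9 lines overlapped freely and every one lay above the parental cells. MT2A has 3 rows in the table, and the row used (transcript cluster 8095362) is the brightest of them. Its number and that of the third row (8095376) fall between those of SLC30A9 (8094848) and SLC39A8 (8101992), both on chromosome 4. Which copy these 2 rows read was not tested. In another, 7995783, whose number falls between those of MT4 (7995772) and MT1X (7995838), the control lines were at 12.78, 12.98 and 12.59 and the parental array at 11.59, and in the third row they were at 12.66, 12.75 and 12.55, against 11.64. The control lines were above the parental array in each row.

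MT1X spread more widely between lines than MT2A, with an SD of 0.38 over the 6 Cr lines against 0.13 for MT2A. It stood at 10.58, 10.59 and 10.19 in the Cr_large lines, at 10.78, 9.79 and 10.71 in the Cr_small lines, at 10.75, 11.28 and 10.56 in the control lines and at 9.01 on the parental array. Control line 2 was the highest of the 9 and Cr_small line 2 the lowest, and all of them were above the parental cells. MT1G stood at 9.85, 9.88 and 9.56 in the Cr_large lines, at 9.95, 9.72 and 9.80 in the Cr_small lines, at 9.76, 9.89 and 9.59 in the control lines and at 8.87 on the parental array. MT1DP stood at 8.45, 8.45 and 8.32 in the Cr_large lines, at 8.43, 8.43 and 8.44 in the Cr_small lines, at 8.42, 8.49 and 8.34 in the control lines and at 7.68 on the parental array.

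**Figure D1:**
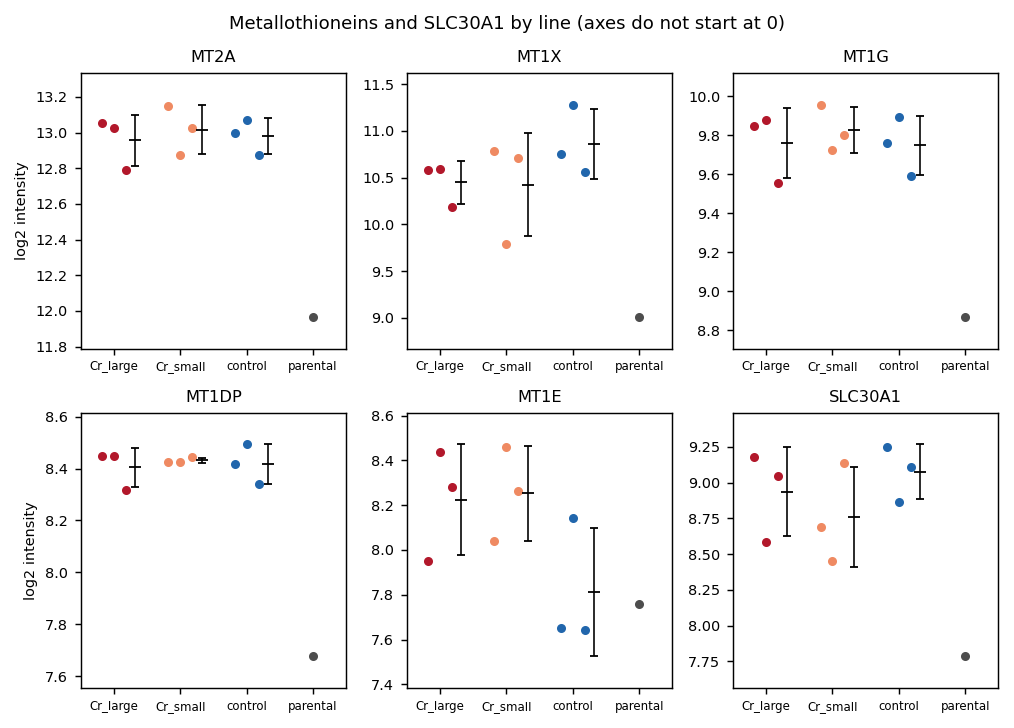
Log2 intensity (vertical axis, not starting at 0) of 5 metallothioneins and SLC30A1 in each Cr_large, Cr_small and control line and on the parental array (points), bars giving mean and SD where a group has 3 lines. For MT2A, MT1X, MT1G, MT1DP and SLC30A1 all 9 lines lie above the parental point, while the MT1E values of the control lines reach below it.

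SLC30A1 stood at 9.18, 8.59 and 9.05 in the Cr_large lines, at 8.69, 8.45 and 9.14 in the Cr_small lines and at 9.25, 8.87 and 9.11 in the control lines, against 7.79 on the parental array. The Cr and control lines overlapped (log2 fold change -0.23 with a standard error of 0.18, adjusted p = 0.522 from limma). SLC30A7, which loads zinc into the early secretory pathway, stood at 10.02, 10.24 and 9.91 in the Cr_large lines, at 10.30, 9.98 and 10.16 in the Cr_small lines and at 9.97, 9.82 and 9.99 in the control lines. It was 1.64-fold higher in the Cr lines and 1.46-fold higher in the control lines than on the parental array, where it was at 9.38. MTF1 was at 8.42 ± 0.11 in the Cr_large, 8.63 ± 0.14 in the Cr_small and 8.37 ± 0.22 in the control lines (SD, n = 3 each), with 8.09 on the parental array. All 9 lines were above the parental value for SLC30A7 and MTF1 as well.

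Among all 49 genes, 7 were at least 1.5-fold higher in the Cr lines than on the parental array, and 6 in the control lines, 14.3% and 12.2% of them, beside the 2.93% and 2.28% of all clusters and the 5.67% and 4.29% of brighter clusters given above. In the other direction 2 of the genes passed this fold in the Cr lines (4.01% of all clusters and 7.12% of brighter ones) and 2 in the control lines (2.29% and 3.96%). All 9 lines lay above the parental array in 18 of the genes, 11 of them metallothioneins, and below it in 7, compared with 14.0% and 11.9% of all clusters. The median difference over the 15 metallothioneins was 0.44 in the Cr lines and 0.44 in the control lines, beside 0.01 and 0.00 over all clusters. These comparisons share the single parental array, and metallothionein genes are near-identical copies whose probes can read each other, so neither the groups nor the genes are independent counts.

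The parental cells have no replicate, and these differences rest on the fold. A limma fit with the lone parental array was added after the data had been seen. Its spread comes wholly from the other groups, so its p-values hold only if parental cultures vary as the lines do, which was not tested. With that limit, MT2A, MT1G and MT1DP passed as higher in the control lines (adjusted p = 0.0177, 0.0434 and 0.00694), and FTL as lower (adjusted p = 0.0471). MT1X and SLC30A1 did not pass (adjusted p = 0.0833 and 0.0933). This test called 0.752% of all clusters higher and 0.734% lower in the control lines. In the Cr lines it called 5 of the genes higher, MT2A, MT1G, MT1DP, MT1HL1 and SLC30A7, and 1 lower, SLC30A4, against 2.20% and 2.73% of all clusters. HMOX1, the heme oxygenase that frees iron from heme, was named after its values were seen. It lay 2.5-fold above the parental array in the Cr lines and 2.46-fold in the control lines, and from 7.79 to 8.60 in all 9 lines against 7.04 in the parental cells. It is 1 of 28 further iron genes. In the Cr lines 2 of these were at least 1.5-fold higher than the parental array and 4 lower. The shares there were 2.93% and 4.01% of all clusters and 5.67% and 7.12% of brighter ones. In the control lines 1 was higher and 3 lower, beside 2.28% and 2.29% of all clusters and 4.29% and 3.96% of brighter ones. CYBRD1, a ferric reductase, was 1.72-fold lower in the Cr lines and 1.82-fold lower in the control lines.

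**Figure D2:**
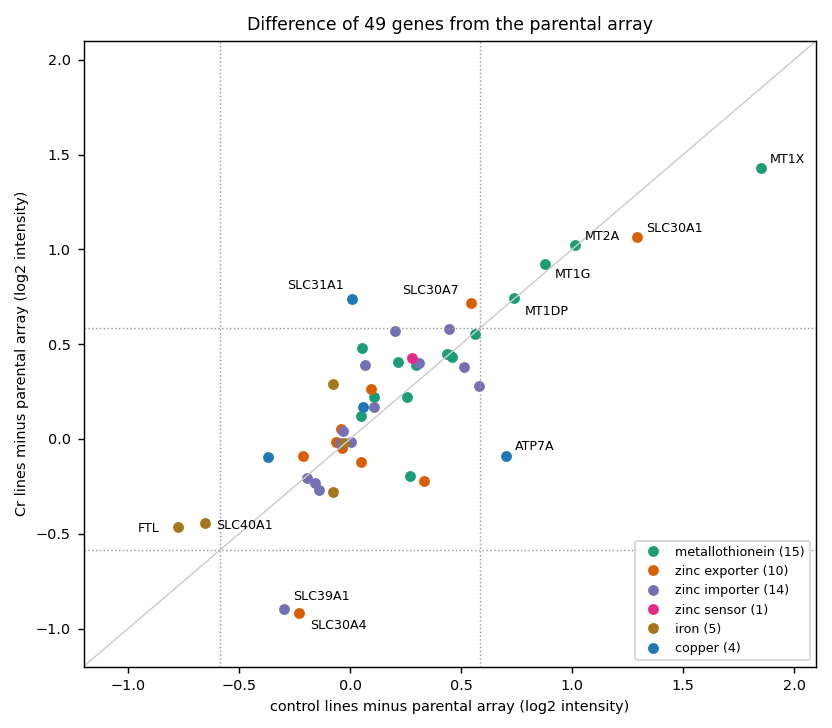
Difference of each of the 49 genes from the parental array in the Cr lines (vertical axis) and in the control lines (horizontal axis), in log2 intensity. Dotted lines mark 1.5-fold, the grey line marks equal differences, and named genes pass the fold on at least 1 axis. MT1X, MT2A, MT1G, MT1DP and SLC30A1 lie high on both axes, while ATP7A and SLC31A1 pass the fold on 1 axis each.

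Set against the control lines, the Cr lines showed no metallothionein past the test. The median log2 fold change of the 15 genes, Cr lines against control lines, was 0.01, beside 0.01 over all clusters, and no adjusted p was below 0.135. The 95% interval of the difference was -0.19 to 0.20 for MT2A, -0.18 to 0.27 for MT1G and -0.11 to 0.11 for MT1DP, but -1.0 to 0.16 for MT1X. At an unadjusted p under 0.05, 1 of the 15 differed in limma, MT1E, where 24.4% of all clusters did. With the unpaired test of the study's methods 1 did as well, and none after adjustment. With a block on the line numbers MT1E passed after adjustment, in all Cr lines together and in each colony size. Without control line 2, 4 of the 15 differed in limma at an unadjusted p under 0.05 and none after adjustment. The share of all clusters in that fit is not given here.

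MT1E was the metallothionein nearest to a difference. It stood at 7.95, 8.44 and 8.28 in the Cr_large lines and at 8.04, 8.46 and 8.26 in the Cr_small lines, against 7.65, 8.14 and 7.64 in the control lines and 7.76 on the parental array. Control line 2 fell among the Cr lines and the other 2 control lines below them. MT1M was at 4.97 to 5.14 in the 6 Cr lines and at 5.21, 6.24 and 5.09 in the control lines. Control line 2 was the highest of the 10 arrays for MT1M, and it was the highest of the 3 control lines for all 15 metallothioneins. MT1F was at 8.19, 8.75 and 8.77 in the Cr_large lines, at 8.98, 8.48 and 8.57 in the Cr_small lines, at 8.40, 9.0 and 7.90 in the control lines and at 8.22 on the parental array. MT3, known from brain, was at 6.87, 6.94 and 6.84 in the Cr_large lines, at 6.83, 7.05 and 6.82 in the Cr_small lines, at 6.63, 7.06 and 6.77 in the control lines and at 6.77 on the parental array. For both genes the groups overlapped and the parental value lay inside the range of the lines. MT4, known from squamous epithelium, had group means of 5.46 to 5.63 in the lines, with 5.35 on the parental array.

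In the remaining 6 rows all 9 lines were above the parental array. MT1B stood at 6.41, 6.39 and 6.16 in the Cr_large lines, at 6.34, 6.22 and 6.31 in the Cr_small lines, at 6.34, 6.41 and 6.26 in the control lines and at 6.08 on the parental array. MT1H stood at 6.19, 6.19 and 5.88 in the Cr_large lines, at 6.15, 5.97 and 6.13 in the Cr_small lines, at 5.94, 6.35 and 5.98 in the control lines and at 5.64 on the parental array. MT1HL1, on chromosome 1, stood at 6.62, 6.56 and 6.39 in the Cr_large lines, at 6.69, 6.67 and 6.68 in the Cr_small lines, at 6.57, 6.79 and 6.47 in the control lines and at 6.05 on the parental array. In these 3 rows the Cr and control lines overlapped. The row of MT1IP was at 6.99, 6.97 and 6.53 in the Cr_large lines, at 6.86, 6.66 and 6.84 in the Cr_small lines, at 6.73, 7.08 and 6.69 in the control lines and at 6.38 on the parental array. The row of MT1JP was at 6.32, 6.32 and 6.28 in the Cr_large lines, at 6.44, 6.31 and 6.14 in the Cr_small lines, at 6.16, 6.52 and 6.20 in the control lines and at 5.86 on the parental array. The row of MT1P3 was at 6.72, 6.85 and 6.75 in the Cr_large lines, at 6.86, 6.80 and 6.87 in the Cr_small lines, at 6.62, 6.89 and 6.64 in the control lines and at 6.42 on the parental array. The log2 fold changes of the 6 rows, Cr lines against control lines, were from -0.03 to 0.09. Of the 15 genes, 13 lie on chromosome 16 and MT1P3 on chromosome 20.

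The copper pump ATP7A and the copper importer SLC31A1 differed in opposite directions between the Cr lines and the control lines. ATP7A was 1.73-fold lower and SLC31A1 1.66-fold higher in the Cr lines than in the control lines. Relative to the parental array, ATP7A was at 0.94-fold in the Cr lines and 1.63-fold in the control lines. SLC31A1 was at 1.67-fold and 1.01-fold. Over all 49 genes, 5 fell in the Cr lines, ATP7A, the zinc carriers SLC30A4, SLC30A9 and SLC39A1, and SLC11A2, and 1 rose, SLC31A1. This is 10.2% and 2.04% of the genes, where 5.72% of all clusters fell and 5.33% rose. Among the 14484 clusters with a mean above the array median, 10.1% fell and 9.50% rose, so the share of the genes that fell is near that of the brighter clusters and the share that rose is below it. In each of these 6 genes the 6 Cr lines lay on 1 side of the 3 control lines. This held for 3 of the 49 genes above (FTL and SLC40A1 beside SLC31A1) and 5 below, against 8.85% and 7.84% of all clusters.

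ATP7A, mutated in Menkes disease, stood at 7.31, 6.83 and 7.16 in the Cr_large lines and at 7.11, 7.0 and 7.11 in the Cr_small lines, against 7.99, 7.75 and 7.89 in the control lines and 7.17 on the parental array. The Cr and control lines did not overlap, and the parental cells lay among the Cr lines, 1.63-fold below the control lines. The difference on the log2 scale was -0.79 ± 0.10 (SE, adjusted p = 0.00287 from limma). ATP7A is on the X chromosome. Its 20 nearest genes with a mean above the array median had a median log2 fold change of -0.39, with 10 lower and 1 higher. Neighbours are counted as lower or higher, here and below, at an adjusted p under 0.05 from limma. Of all brighter clusters 10.1% were lower and 9.50% higher at that threshold. The neighbours also lay above the parental array in the control lines, by a median of 0.41. Their part in the fall of ATP7A was not tested.

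SLC31A1 (also called CTR1), the high-affinity copper importer, stood at 10.30, 10.22 and 9.70 in the Cr_large lines and at 10.06, 10.20 and 9.89 in the Cr_small lines, against 9.51, 9.12 and 9.37 in the control lines and 9.32 on the parental array. Here the control lines surrounded the parental value and the Cr lines were above both. The difference on the log2 scale was 0.73 ± 0.15 (SE, adjusted p = 0.0183 from limma), and the call was lost without control line 2 or control line 3 (adjusted p up to 0.0658). The 20 neighbours on chromosome 9 had a median of 0.30, with 3 higher and none lower, and their part was not tested. SLC31A2, also on chromosome 9, is a relative of SLC31A1 thought to act in endosomes. It was at 8.19 ± 0.19 in the Cr_large, 8.09 ± 0.14 in the Cr_small and 7.87 ± 0.15 in the control lines (SD, n = 3 each). SLC31A2 did not pass the test (adjusted p = 0.147 from limma). ATP7B, mutated in Wilson disease, had a log2 fold change of 0.11 and did not pass it either (adjusted p = 0.505 from limma).

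**Figure D3:**
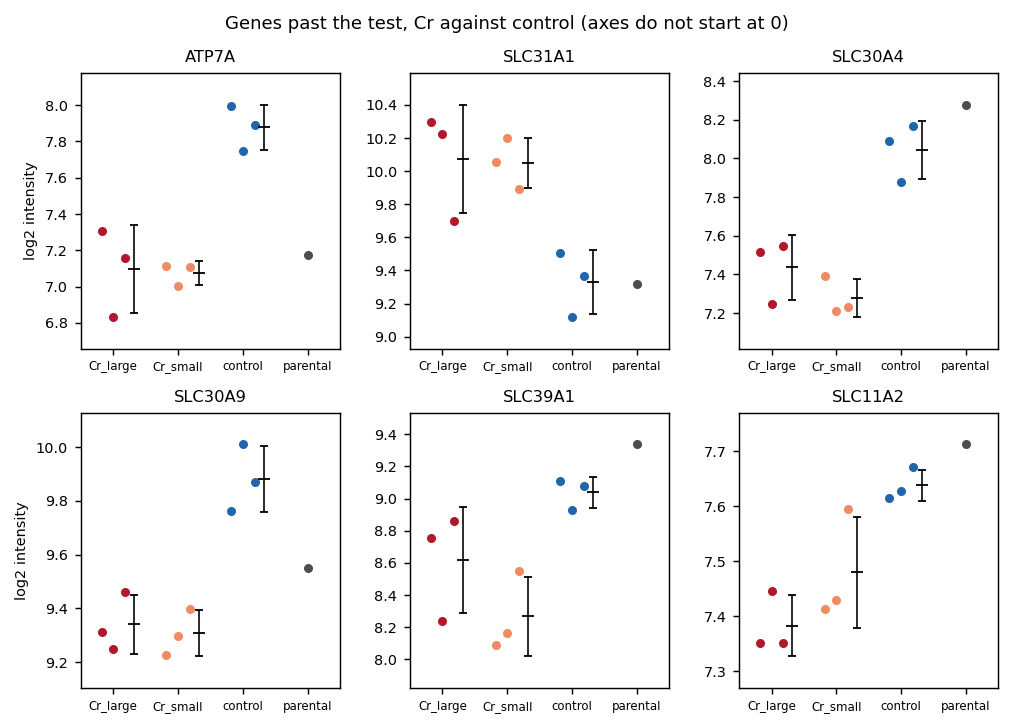
Log2 intensity (vertical axis, not starting at 0) of the 6 genes that changed between the Cr lines and the control lines, in each line and on the parental array (points), bars giving mean and SD where a group has 3 lines. In each panel the 6 Cr points lie on 1 side of the 3 control points, and the parental point lies with the Cr lines for ATP7A and with the control lines for SLC31A1.

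Among the zinc exporters, SLC30A4 and SLC30A9 fell in both Cr groups in limma. With the unpaired test of the study's methods neither passed after adjustment in either Cr group alone, and SLC30A4 lost its call in the Cr_large lines without control line 1 or 3. SLC30A4, which fills vesicles with zinc, stood at 7.52, 7.24 and 7.55 in the Cr_large lines and at 7.39, 7.21 and 7.23 in the Cr_small lines, against 8.09, 7.88 and 8.17 in the control lines and 8.28 on the parental array. The Cr lines were below the control lines and the parental cells alike, by 1.61-fold against the control lines (log2 fold change -0.69 with a standard error of 0.09, adjusted p = 0.00310 from limma). Its 20 neighbours on chromosome 15 had a median log2 fold change of -0.39, with 11 lower and none higher, and their part was not tested. SLC30A9, a mitochondrial zinc exporter, stood at 9.31, 9.25 and 9.46 in the Cr_large lines and at 9.23, 9.30 and 9.40 in the Cr_small lines, against 9.76, 10.01 and 9.87 in the control lines. The parental array, at 9.55, lay between the groups. SLC30A9 was 1.47-fold lower in the Cr lines (log2 fold change -0.56 with a standard error of 0.07, adjusted p = 0.00276 from limma), and its 20 neighbours on chromosome 4 had a median of -0.26, with 8 lower and 2 higher, their part not tested.

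SLC30A1, SLC30A5, SLC30A6 and SLC30A7, the other exporters above the array median together with SLC30A3, had log2 fold changes from -0.23 to 0.17 and did not pass the test. SLC30A2, SLC30A8 and SLC30A10 had mean levels from 4.87 to 5.27 in the line groups, in the lower part of the array's range, where the constant that the deposited normalization adds makes folds smaller. Their log2 fold changes were from -0.01 to 0.10.

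Of the 14 zinc importers, SLC39A1 fell and the others did not pass the test. SLC39A1 (ZIP1), a plasma membrane importer, stood at 8.75, 8.24 and 8.86 in the Cr_large lines and at 8.09, 8.16 and 8.55 in the Cr_small lines, against 9.11, 8.93 and 9.08 in the control lines and 9.34 on the parental array. Cr_large line 3 came closest to the control lines. The difference on the log2 scale was -0.60 ± 0.15 (SE, adjusted p = 0.0444 from limma), that of the Cr_small lines alone -0.77 (adjusted p = 0.0362) and that of the Cr_large lines -0.42 (adjusted p = 0.225). Its call was lost without any 1 of the 3 control lines, without Cr_small line 1 or 2 and without Cr_large line 1 (adjusted p up to 0.146). The 20 neighbours on chromosome 1 had a median of -0.22, with 2 lower and none higher, and their part was not tested.

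SLC39A8 (ZIP8), which carries zinc, manganese, iron and cadmium, had the largest SD of the 49 genes over the 6 Cr lines, 0.69. It stood at 6.33, 7.43 and 7.53 in the Cr_large lines, at 7.97, 7.43 and 8.40 in the Cr_small lines, at 7.07, 7.01 and 7.37 in the control lines and at 6.95 on the parental array. All 3 Cr_small lines were above the control lines, while Cr_large line 1 was the lowest of the 10 arrays. The difference between Cr_large and Cr_small was -0.84 and did not pass the test (adjusted p = 0.99981 from limma). Its 20 neighbours on chromosome 4 had a median log2 fold change of -0.51, Cr lines against control lines, with 17 lower, while that of SLC39A8 was 0.36 (adjusted p = 0.537 from limma). SLC39A14, its nearest relative, was at 9.17 ± 0.14 in the Cr_large, 9.18 ± 0.12 in the Cr_small and 9.31 ± 0.18 in the control lines (SD, n = 3 each). SLC39A13, an importer of zinc and iron tied to collagen-forming tissue, had a log2 fold change of -0.30 (adjusted p = 0.132 from limma), and SLC39A10 of 0.32 (adjusted p = 0.138). SLC39A7, which releases zinc from the endoplasmic reticulum, was at 9.73, 9.88 and 9.74 in the means of the Cr_large, Cr_small and control lines. SLC39A2, SLC39A5 and SLC39A12 had means below the array median.

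Of the 5 iron genes, SLC11A2 passed the test. SLC11A2 (DMT1), which carries ferrous iron into the cytosol, stood at 7.35, 7.45 and 7.35 in the Cr_large lines and at 7.41, 7.43 and 7.60 in the Cr_small lines, against 7.62, 7.63 and 7.67 in the control lines and 7.71 on the parental array. It was 1.15-fold lower in the Cr lines (log2 fold change -0.21 with a standard error of 0.05, adjusted p = 0.0367 from limma), and Cr_small line 3 came closest to the control lines. Its 20 neighbours on chromosome 12 had a median of 0.13, with 4 higher. The call was lost under 12 of 18 other settings.

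FTL and TFRC, a store and an entry of iron, were both short of the threshold. FTL stood at 10.18, 10.18 and 10.36 in the Cr_large lines and at 10.22, 9.99 and 10.40 in the Cr_small lines, against 9.93, 9.96 and 9.84 in the control lines and 10.69 on the parental array (log2 fold change, Cr against control, 0.31, adjusted p = 0.0620 from limma). All Cr lines were above the control lines and all 9 lines below the parental cells, the control lines by 1.71-fold. TFRC stood at 11.47, 11.36 and 10.90 in the Cr_large lines and at 11.21, 11.06 and 11.28 in the Cr_small lines, against 10.98, 10.79 and 10.78 in the control lines and 10.92 on the parental array. One Cr_large line fell among the control lines (log2 fold change 0.37, adjusted p = 0.111 from limma). ACO1, the iron regulatory protein that binds such transcripts when iron is short, was at 10.31 ± 0.25 in the Cr_large, 10.27 ± 0.16 in the Cr_small and 10.28 ± 0.09 in the control lines (SD, n = 3 each). SLC40A1, the iron exporter ferroportin, was near the lower end of the array, at 5.12, 5.05 and 5.13 in the Cr_large lines, at 5.48, 5.01 and 5.01 in the Cr_small lines, at 4.89, 4.94 and 4.95 in the control lines and at 5.58 on the parental array. Cr_small line 1 stood apart from the other Cr lines.

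**Figure D4:**
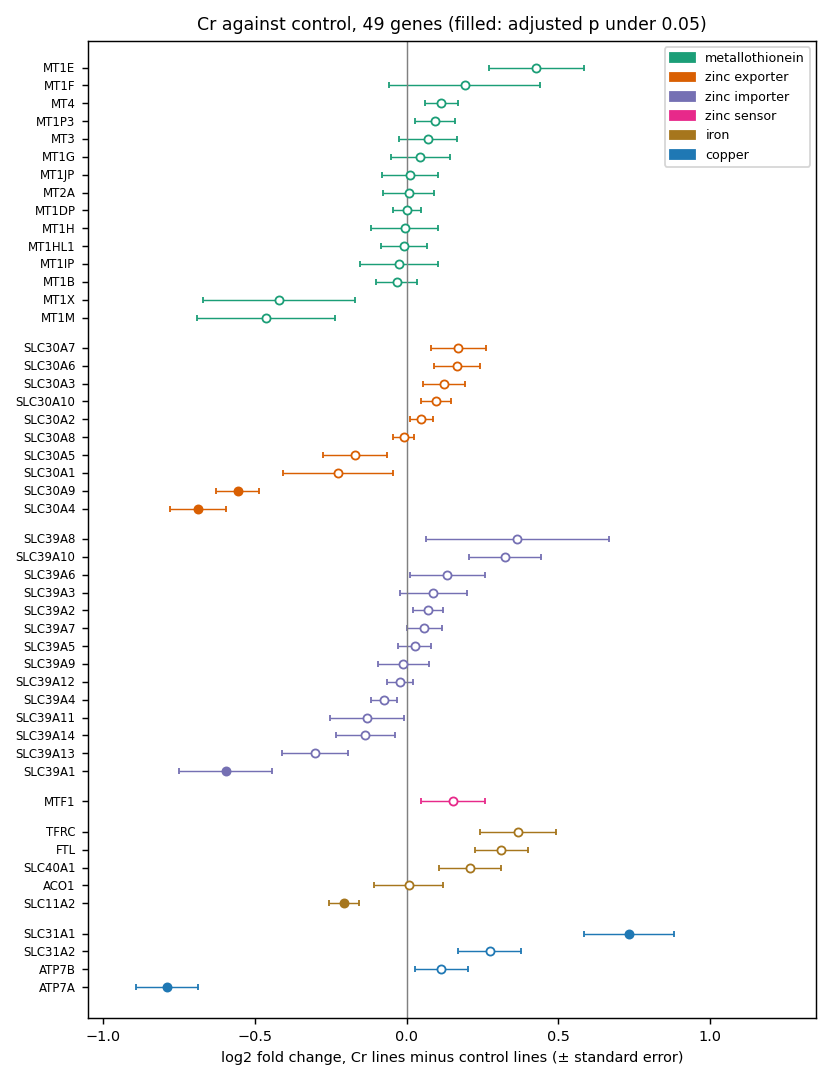
Log2 fold change of the 49 genes, Cr lines minus control lines (horizontal axis), with the standard error of the limma fit (bars), grouped by family. Filled points passed the test at an adjusted p under 0.05, 5 of them to the left of 0 and 1 to the right, and the metallothioneins are all open.

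Each colony size was also compared with the control lines alone. In the Cr_small lines SLC31A1 rose and SLC30A4, SLC30A9, SLC39A1 and ATP7A fell, 1 and 4 of the 49 genes against 3.79% and 4.47% of all clusters and 6.97% and 7.91% of brighter ones. In the Cr_large lines SLC31A1 rose and SLC30A4, SLC30A9, SLC11A2 and ATP7A fell, again 1 and 4, against 3.33% and 4.11% of all clusters and 5.97% and 7.33% of brighter ones. The 4 genes that fell are 8.16% of the 49 in each comparison, near the share of the brighter clusters. Both comparisons use the same control lines. SLC31A1 lost its Cr_small call with the unpaired test, with a block on the line numbers and without Cr_large line 2. That call was also lost without any 1 control line or any 1 Cr_small line. Its Cr_large call was lost with the unpaired test and with only the compared groups fitted. It was also lost without any 1 control line, any 1 Cr_small line, or Cr_large line 1 or 2. Set against the Cr_small lines, the Cr_large lines showed no called gene among the 49 in limma, nor among all clusters (0% called). At an unadjusted p under 0.05, 2 of the 49 differed, SLC39A8 and SLC39A6, where 4.39% of all clusters did, and 1 with the unpaired test of the study's methods.

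Of 28 further iron genes measured, 1 rose and 2 fell in the Cr lines, of 12 further copper genes 1 rose and 2 fell, and of 11 genes tied to zinc or MTF1 1 rose and 1 fell, where 5.33% of all clusters rose and 5.72% fell. FBXL5, which marks an iron regulatory protein for degradation when iron is plentiful, was 1.68-fold lower (adjusted p = 0.000349 from limma), and SLC25A37 (mitoferrin 1), which carries iron into mitochondria, was 1.65-fold lower (adjusted p = 0.000670), while STEAP3, the ferric reductase of transferrin endosomes, was 1.32-fold higher (adjusted p = 0.0466). Among the copper genes, SCO1, which delivers copper to cytochrome c oxidase, rose 1.41-fold, and COMMD1, a regulator of copper export, and XIAP, which binds COMMD1, were 1.5-fold and 1.45-fold lower (adjusted p = 0.0164, 0.0144 and 0.00440 from limma). Among the genes tied to zinc or MTF1, GCLC, of glutathione synthesis, rose 1.36-fold and TRPM7, a channel for zinc and magnesium, was 1.55-fold lower (adjusted p = 0.00264 and 0.000160 from limma). The median log2 fold changes of these lists were 0.02, 0.07 and 0.03. Of the lower genes, XIAP is on the X chromosome like ATP7A, TRPM7 on chromosome 15 like SLC30A4 and FBXL5 on chromosome 4 like SLC30A9. SLC25A37 is on chromosome 8 and COMMD1 on chromosome 2. The part of neighbouring genes in these changes was not tested.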

How the data were processed

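RNA of 9 cell lines and of the parental BEAS-2B cells was hybridized to 1 Affymetrix Human Gene 1.0 ST array each. The deposited values are intensities on a linear scale, which the authors made in GeneSpring with RMA16 (background correction, quantile normalization and a summary of the probes of each transcript cluster). Their range is 20.0 to 16980, with no baseline subtracted. The constant added in RMA16 shrinks the fold of a dim gene. The number of arrays limits the precision. Only the log2 was taken before testing.

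Gene symbols came from the platform annotation, which gives 19310 of 28869 clusters a single symbol. A mean for each of 4 groups was fitted to all clusters with limma 3.58.1 in R 4.3.3 (6 residual and 1.96 prior degrees of freedom), and Benjamini-Hochberg adjustment ran over all clusters. The parental array was compared by fold (1.5). Promoters came from RefSeq (GRCh38.p14). The fit was tested on simulated data. Named were all metallothioneins, genes past the test or the fold, the brightest carrier of each family and the fixed iron and copper genes. Values per line are given for genes past the test or the fold and for metallothioneins above the array median, and the others are summarised. The members and lists were chosen with earlier results of these data known. Alternatives were the methods' unpaired test, other moderation, filters, normalizations, rows, a replicate block on the line numbers and leaving out each line. The check of the parental array with limma and the neighbouring genes were added after the data had been seen. Figures were drawn with matplotlib 3.10.9.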

Additional observations from a re-analysis of the deposited data

Results flagged for a closer look

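Among the 6 Cr lines, 1 line stood apart from the other 5 by more than a gap test (Dixon, at 95%) allows in 4 of the 49 genes. For a normal spread, chance flags about 1 in 20 groups. The test was run on the 49 genes alone, with both colony sizes pooled. No share of all clusters stands beside the 4 genes, so no excess can be read from them. MT1DP was at 8.32 in Cr_large line 3, with the others from 8.43 to 8.45. MT4 was at 5.75 in Cr_small line 1, with the others from 5.49 to 5.57. SLC39A3, a zinc importer, was at 7.65 in Cr_large line 3, with the others from 8.04 to 8.22. SLC40A1 was at 5.48 in Cr_small line 1, with the others from 5.01 to 5.13.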

How the results depend on the processing

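ATP7A, SLC30A4 and SLC30A9 stayed below the control lines and past the threshold in all 18 alternatives when all Cr lines were compared with the control lines. SLC31A1 lost its call in 2, SLC39A1 in 7 and SLC11A2 in 12, with no change of direction and adjusted p-values up to 0.0658, 0.146 and 0.164. Leaving out 1 line at a time gave 0 to 2 genes higher and 3 to 5 lower in the Cr lines, 3 to 5 called in Cr_small and 2 to 5 in Cr_large, 0 between the Cr groups, and 6 to 9 higher and 2 lower in the control lines than on the parental array (7 to 9 and 2 in the Cr lines). The count of lower genes was 3 without any 1 control line, Cr_small line 1 or 2 or Cr_large line 1, and no gene was higher without control line 2 or 3. In Cr_small 3 were called without any 1 control line or Cr_small line 1, and in Cr_large 2 without control line 1 or 3 and 3 without control line 2 or Cr_large line 1 or 2. Fewer lines enter each of these fits. With the methods' unpaired test and Benjamini-Hochberg 3 genes were lower, 1 was called in Cr_small and 0 in Cr_large. Without the dimmest 25% of clusters, or with clusters of 1 symbol alone, 2 were higher, FTL being added. At a fold of 2, 3 genes were higher and 0 lower than the parental array in the control lines. In the Cr lines 3 were higher and 0 lower. The shares of all clusters at that fold are not given here, so no excess can be read from these counts. With the lone parental array in limma, which was added after the data had been seen, 3 were higher and 1 lower in the control lines and 5 and 1 in the Cr lines. Line numbers in the titles did not pair the lines: residuals of same-numbered lines correlated from -0.145 to 0.0984 in 9 pairs. With the replicate block 3 genes were higher, MT1E and SLC31A2 beside SLC31A1.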
